A study of Mus musculus with 4 samples.

Results

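Ccl5-high cells of the control cultures were defined as control cells with 10 or more unique molecular identifiers (UMIs, each standing for 1 captured transcript) of Ccl5. They numbered 198 of the 4703 control cells kept, and of 9921 cells kept in the whole series. Control replicate 1 gave 66 of 2065 cells and control replicate 2 gave 132 of 2638 cells. A kept cell was a barcode with at least 6500 UMIs, at least 500 genes and under 10% mitochondrial UMIs. They were compared with the 1496 and 1804 cells of the same libraries that had 0 Ccl5 UMIs, called Ccl5-zero cells. The members were chosen by the Ccl5 count itself, so Ccl5 is described here and was neither tested nor included in any fit.

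The cells came from spleens of gBT-I.CD45.1 mice, whose CD8+ T cells carry a transgenic T cell receptor for a glycoprotein B peptide of herpes simplex virus. All cultures were activated with peptide-pulsed C57BL/6 splenocytes and LPS and were grown in human IL-2. The butyrate cultures received 0.5 mM sodium butyrate and the control cultures received PBS from day 3 to day 5, and viable CD8+Vα2+ cells were sorted on day 6 for 10x 3' single-cell RNA sequencing. Each group held 2 libraries, one from each of the same pair of mice, all in batch 1, so the data describe cells of 1 receptor specificity grown in vitro and not a natural repertoire.

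Ccl5 encodes RANTES, a CC chemokine that attracts T cells, monocytes and eosinophils. Resting naive CD8+ T cells carry little of its mRNA. After activation CD8+ T cells accumulate it late, and memory CD8+ T cells keep a store of it that allows protein release soon after a second contact with antigen. NK cells also express Ccl5, as do γδ T cells and some myeloid cells, so their markers were counted beside each result.

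Library totals ranged from 64388093 to 76522004 UMIs, and the filter on mitochondrial UMIs removed between 64 and 308 barcodes per library. Kept cells had median depths between 20470 and 24814 UMIs per library. Libraries shared between 1 and 5 kept barcodes per pair. A group held 1 culture from each of 2 mice. A p-value for Ccl5-high against Ccl5-zero cells measures how that difference within a library varied between these cultures, pooled over both groups. Only calls for butyrate against control rest on the spread between the cultures themselves. For the tests the UMIs of all cells of a class were summed per library, which gave 8 sums: Ccl5-high and Ccl5-zero in each of 4 libraries. The sums of the tested genes held 1416886 and 2870643 UMIs for control Ccl5-high cells and 37034961 and 42531069 UMIs for control Ccl5-zero cells. The fit assumed a single spread for all sums, although those of the control Ccl5-high cells held only 66 and 132 cells.

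Ccl5 lies on chromosome 11 (GRCm38, 83525778-83530518; ENSMUSG00000035042). In the butyrate libraries, 39.3% and 38.9% of kept cells were Ccl5-high, against 3.20% (95% exact binomial interval 2.48 to 4.05%) and 5.004% (4.20 to 5.91%) in the control libraries. The mean share was 39.1 ± 0.258% in butyrate and 4.10 ± 1.28% in control (SD, n = 2 each). Every butyrate library lay far above both control libraries, and the share in control replicate 2 was above the interval of control replicate 1. After each cell was thinned at random to 6500 UMIs, 22.1% and 22.6% of butyrate cells and 1.16% and 2.27% of control cells still held 10 or more Ccl5 UMIs. These intervals cover counting error only.

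Few as they were, the members held 63.3% and 76.0% of all Ccl5 UMIs of the kept control cells. Their median Ccl5 count was 16 UMIs in control replicate 1 and 24 UMIs in control replicate 2, and their highest counts were 283 and 314 UMIs. In control replicate 1, 40 members had 10 to 19 Ccl5 UMIs, 15 had 20 to 49 and 11 had 50 or more. In control replicate 2 the same ranges held 57, 45 and 30 members. The threshold cut through a continuous range: 6 and 7 control cells had 9 Ccl5 UMIs, just outside it, and 9 and 11 had exactly 10, just inside it. Barcodes with under 100 UMIs, which stand for free RNA, held Ccl5 at 1883 and 2139 CPM (counts scaled to a common library total) in butyrate and 171 and 203 CPM in control. These levels exceeded those of the kept cells, at 1235 and 1393 CPM in butyrate and 63.8 and 110 CPM in control. The members themselves stood at 1454 and 1820 CPM. Because the Ccl5 count chose them, this level cannot be set against that of the free RNA. The part of free RNA in cells with few Ccl5 UMIs was not tested.

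**Figure D1:**
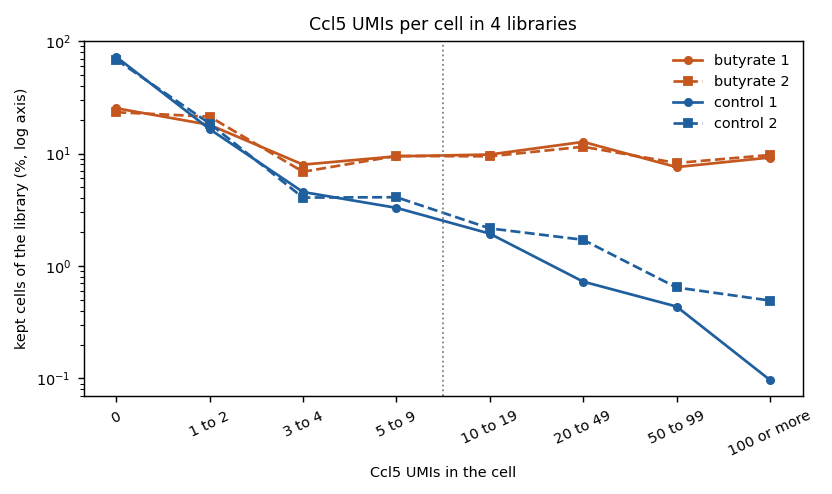
Percent of kept cells of each library (log axis) by Ccl5 UMIs in the cell, with 1 line per butyrate and control library and a dotted line at the threshold of 10 UMIs. Right of the dotted line the butyrate lines stay level and together hold 39.3% and 38.9% of cells, while the control lines fall away and hold 3.20% and 5.004%.

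The members carried the markers of the sorted cells. A UMI of Cd8a or Cd8b1 was found in 93.9% and 99.2% of members and in 95.6% and 94.3% of Ccl5-zero cells. Trbv13-3, a T cell receptor β variable segment, took 95.3% (81 of 85) and 88.7% (118 of 133) of the members' β variable UMIs, against 87.7% and 86.8% in Ccl5-zero cells. The members were shallower than the cells they were compared with. They had medians of 16545 and 18764.5 UMIs, against 21796 and 20352.5 in Ccl5-zero cells, and of 3270 and 3674.5 genes, against 4236 and 4129.5. Their median ribosomal share of UMIs was 33.3% and 30.4%, against 28.3% and 27.5% in Ccl5-zero cells, and their mitochondrial share 4.18% and 4.23%, against 4.97% and 5.02%. The part of these differences in the results below was not tested. Cells above the 95th percentile of depth, where doublets gather, made up 3.03% and 3.79% of members and 4.55% and 4.77% of Ccl5-zero cells.

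Of 12501 genes tested with edgeR's quasi-likelihood test, 1282 (10.3%) were higher and 1330 (10.6%) were lower in Ccl5-high than in Ccl5-zero control cells at a Benjamini-Hochberg adjusted p under 0.05, 20.9% in either direction. When sums were scaled by their totals alone, 980 were higher and 2092 lower, so the balance between directions depended on the scaling. With all cells thinned to 6500 UMIs, 789 were higher and 528 lower, and without control replicate 2, 717 were higher and 765 lower. Over all tested genes the log2 fold change had a median of -0.04. Genes are named below by the rules given with the processing, and others were chosen after their values were seen. Of the 123 genes named, 98 passed in control. Many were named because they passed this comparison or had the smallest p in it, so that count follows in part from the naming. Log2 fold changes are Ccl5-high over Ccl5-zero and are given ± the standard error (SE). Levels are TMM-scaled CPM.

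**Figure D2:**
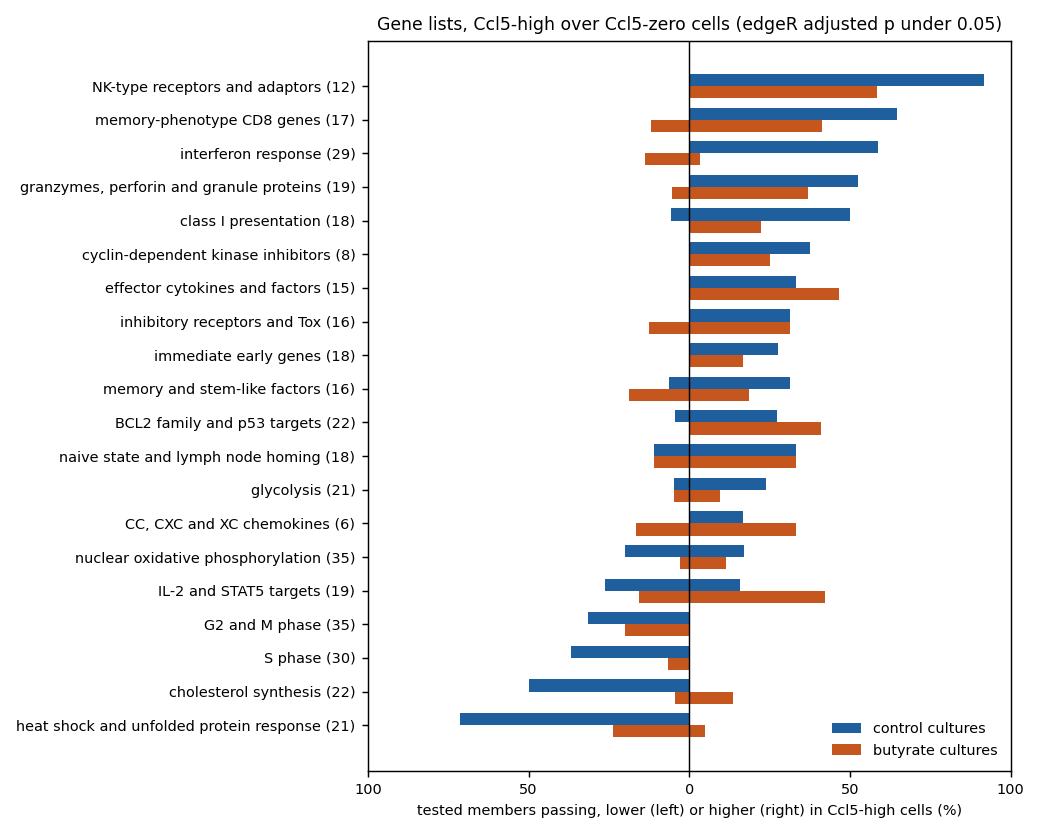
Percent of the tested members of each gene list (number tested in brackets) that passed as higher (bars to the right) or lower (bars to the left) in Ccl5-high cells, for control and butyrate cultures. In control 11 of 12 NK-type genes and 17 of 29 interferon genes extend to the right and 15 of 21 chaperone genes to the left.

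Genes for receptors and adaptors first described on NK cells were higher in the members as a group. Of the 12 tested members of that list 11 rose and none fell, with a median log2 fold change of 1.97. Klre1 encodes a lectin-like receptor of the killer cell family (chromosome 6, 129577905-129585827). It was at 35.2 and 29.5 CPM in Ccl5-high cells and at 1.87 and 3.13 CPM in Ccl5-zero cells. The 4 sums did not overlap, and edgeR gave a log2 fold change of 3.58 ± 0.22 (adjusted p = 9.99e-11). After thinning, 13.6% and 14.4% of members and 1.14% and 2.11% of Ccl5-zero cells had a Klre1 UMI, so most members showed none at that depth. Klrd1, which encodes CD94, the partner chain of the NKG2 receptors, was far more widely detected. Its level was 474 and 421 CPM in Ccl5-high cells and 204 and 195 CPM in Ccl5-zero cells (1.16 ± 0.05, adjusted p = 1.24e-12, edgeR). Thinned, 81.8% and 81.1% of members and 60.0% and 58.9% of Ccl5-zero cells held a Klrd1 UMI.

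Other genes of this kind followed. Klrb1c, which encodes the NK1.1 antigen, was at 26.2 and 29.1 CPM in Ccl5-high cells and 4.36 and 5.97 CPM in Ccl5-zero cells, a log2 fold change of 2.38 ± 0.17. Klrc1, which encodes the inhibitory chain NKG2A, had 29.7 and 25.1 CPM in Ccl5-high cells against 6.68 and 6.46 CPM in Ccl5-zero cells. Its log2 fold change of 2.03 ± 0.28 passed (adjusted p = 0.000232, edgeR). The fold change was of like size but not called with depth-matched Ccl5-zero cells (1.91, adjusted p = 0.0938), without control replicate 1 (1.96, adjusted p = 0.127) and without control replicate 2 (2.14, adjusted p = 0.132). Klrk1, which encodes the activating receptor NKG2D, was at 116 and 118 CPM in Ccl5-high cells and 69.3 and 73.9 CPM in Ccl5-zero cells. Hcst, the DAP10 adaptor through which NKG2D signals, had 325 and 250 CPM in Ccl5-high cells and 150 and 128 CPM in Ccl5-zero cells. Both rose, by 0.70 and 1.03 on the log2 scale. Samd3, a sterile alpha motif gene, had the largest fold change of the genes named by size, at 24.9 and 19.1 CPM in Ccl5-high cells and 1.21 and 1.78 CPM in Ccl5-zero cells (3.77 ± 0.27, adjusted p = 1.15e-09, edgeR).

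Markers of NK cells and γδ T cells moved with this group, and their counts and summed levels are given here. All 6 tested NK cell markers were higher, and all 6 also stand in the NK-type list, with summed levels of 720 and 703 CPM in Ccl5-high cells and 315 and 328 CPM in Ccl5-zero cells. The defining marker Ncr1, the NKp46 receptor, was at 0 UMIs in the members, as was Klrb1a. Among γδ T cell markers 3 of 6 were higher, with sums of 247 and 364 CPM in Ccl5-high cells and 192 and 181 CPM in Ccl5-zero cells. Without control replicate 2, 1 γδ marker was higher and 1 lower. Trdc, the δ constant chain, had 192 and 266 CPM in Ccl5-high cells and 135 and 128 CPM in Ccl5-zero cells. The part of cells other than the sorted type in these differences was not tested.

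**Figure D3:**
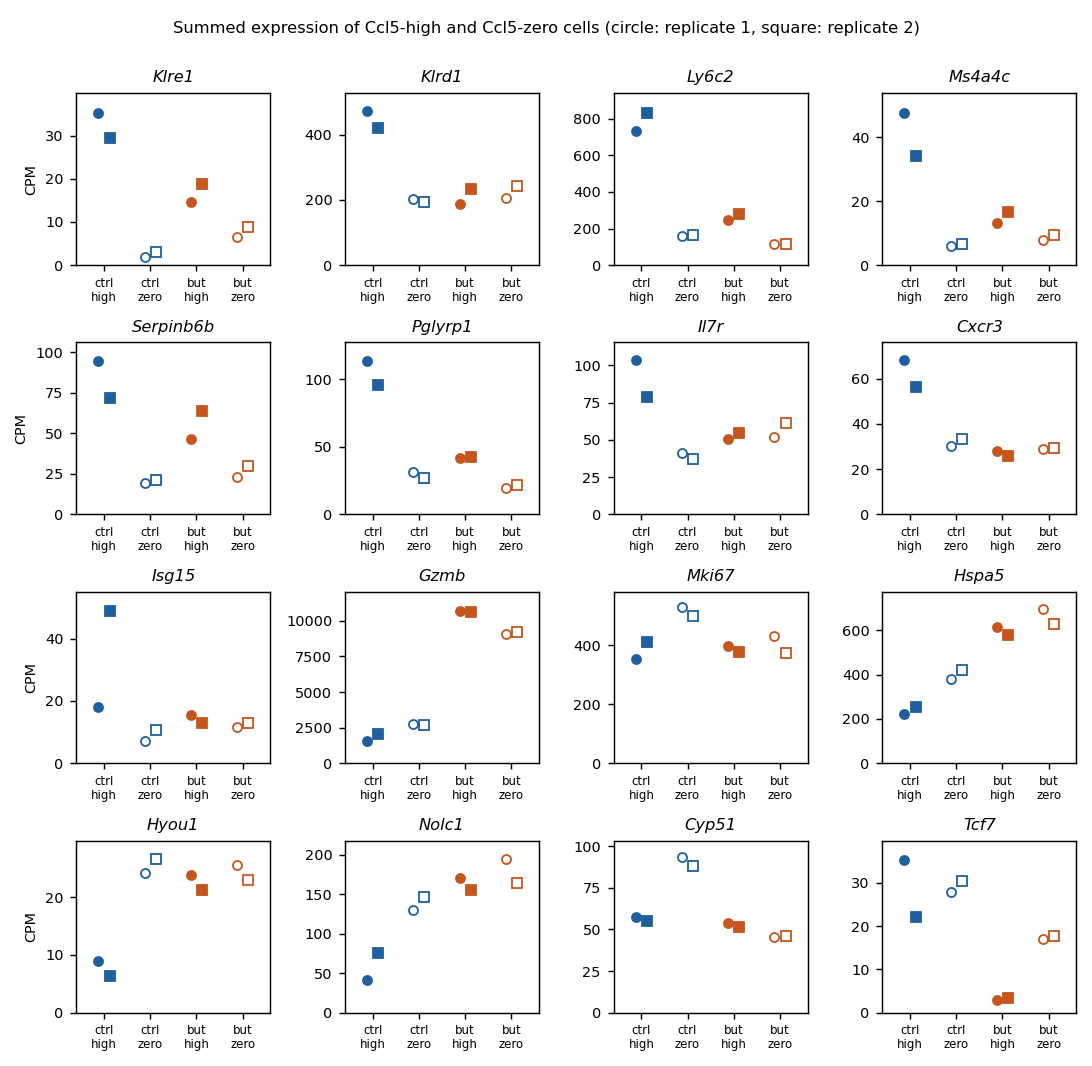
Level (TMM-scaled CPM, linear axes that start at 0) of 16 named genes in the summed Ccl5-high (filled) and Ccl5-zero (open) cells of control (ctrl) and butyrate (but) cultures, with a circle for replicate 1 and a square for replicate 2. Klre1, Klrd1 and Ly6c2 are higher in both control Ccl5-high sums than in both control Ccl5-zero sums, and Hyou1 and Nolc1 are lower.

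Genes typical of memory-phenotype CD8+ T cells were also higher. Of 17 tested, 11 rose and none fell, with a median log2 fold change of 0.79. The list shares 4 genes with the NK-type list, and of the 13 others 7 rose. Ly6c2, which encodes a surface antigen that is raised on memory-phenotype CD8+ T cells, was at 731 and 834 CPM in Ccl5-high cells and 161 and 164 CPM in Ccl5-zero cells (2.28 ± 0.05, adjusted p = 5.61e-18, edgeR). It lies on chromosome 15 (75108158-75111970). Thinned, 65.2% and 74.2% of members and 34.0% and 35.3% of Ccl5-zero cells had a Ly6c2 UMI. Il7r, which encodes the interleukin-7 receptor chain CD127, was at 104 and 79.0 CPM in Ccl5-high cells and 41.4 and 37.3 CPM in Ccl5-zero cells, a log2 fold change of 1.18 ± 0.10 (adjusted p = 8.23e-09). Cxcr3, which encodes a chemokine receptor for entry into inflamed tissue, had 68.4 and 56.3 CPM in Ccl5-high cells against 30.1 and 33.3 CPM in Ccl5-zero cells. Ccr2, a receptor for monocyte-attracting chemokines, had 189 and 155 CPM in Ccl5-high cells against 86.3 and 98.6 CPM in Ccl5-zero cells. The 2 receptors rose by 0.92 and 0.84 on the log2 scale. Il18r1, a chain of the interleukin-18 receptor, rose by 1.11.

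Other factors of memory and of the naive state did not move as a block. Of 16 tested memory and stem-like factors 5 rose and 1 fell, and of 18 genes of the naive state and lymph node homing 6 rose and 2 fell. Tcf7, which encodes TCF-1, the transcription factor that maintains stem-like T cells, was at 35.2 and 22.1 CPM in Ccl5-high cells and 27.9 and 30.6 CPM in Ccl5-zero cells (-0.16, adjusted p = 0.558, edgeR). S1pr1, a receptor for exit from lymphoid tissue, rose by 1.05. Klf2, the factor that sustains S1pr1, had 29.7 and 48.2 CPM in Ccl5-high cells and 24.8 and 26.8 CPM in Ccl5-zero cells. Its log2 fold change of 0.68 (adjusted p = 0.000932) was 0.25 (adjusted p = 0.591, edgeR) without control replicate 2. Cd44, a marker of antigen experience, did not pass (0.10, adjusted p = 0.635), nor did Eomes (0.13, adjusted p = 0.417) or Tbx21 (0.40, adjusted p = 0.0878), which encode T-box factors of effector and memory cells.

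Cytotoxic genes were higher in part. Of 19 tested genes for granzymes, perforin and granule proteins 10 rose and none fell, with a median log2 fold change of 0.57. Prf1, which encodes perforin, was at 58.7 and 69.3 CPM in Ccl5-high cells and 22.8 and 26.2 CPM in Ccl5-zero cells (1.39 ± 0.10, adjusted p = 2.10e-09, edgeR). Nkg7, a granule membrane protein of killer cells, was at 1267 and 1347 CPM in Ccl5-high cells and 879 and 884 CPM in Ccl5-zero cells, and rose by 0.57 ± 0.04. Gzma and Gzmb did not pass. Gzmb, whose enzyme triggers caspases in target cells, had 1592 and 2087 CPM in Ccl5-high cells and 2744 and 2722 CPM in Ccl5-zero cells (-0.57 ± 0.12, adjusted p = 0.0860, edgeR). It passed as lower under 13 of 16 alternative settings, DESeq2, thinning and leaving out any 1 library among them, with log2 fold changes between -0.80 and -0.37 over all 16. Gzma had 2006 and 1940 CPM in Ccl5-high cells and 1218 and 1696 CPM in Ccl5-zero cells (0.44, adjusted p = 0.301). Gzmk, a granzyme of memory-like cells, passed (3.23 ± 0.35) on 23 and 29 UMIs in the members, of which 15 of the 23 in control replicate 1 came from 1 cell.

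No other chemokine gene gave a difference that was called under every setting. Of 6 tested chemokine genes, 1 rose and none fell. It was Xcl1, which encodes lymphotactin, at 8.98 and 10.7 CPM in Ccl5-high cells and 2.84 and 5.88 CPM in Ccl5-zero cells (1.06 ± 0.27, adjusted p = 0.00633, edgeR). That call was lost after thinning, with a threshold of 20 UMIs, without control replicate 1, without the library term and without the deepest cells. Over the 6 genes, the count of higher ones was 2 with DESeq2, after thinning and from the 4 control sums, and 3 with limma-voom. It was 0 with a threshold of 20 UMIs, without the library term and without the deepest cells. Ccl4, a macrophage inflammatory protein gene, had 19.3 and 4.02 CPM in Ccl5-high cells and 1.70 and 1.65 CPM in Ccl5-zero cells. Its sums did not overlap, and edgeR gave an adjusted p of 0.483 (2.50 ± 1.72). After thinning, 6.06% and 4.55% of members and 1.14% and 1.05% of Ccl5-zero cells had a Ccl4 UMI. Ccl3 had 0 UMIs in the members. Ifng, the gene of interferon-γ, had 2 and 12 UMIs in the members (adjusted p = 0.801).

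CD8 T cell markers were mostly higher, and 9 of 18 class I antigen presentation genes were. Of 8 tested CD8 T cell markers 7 rose, with summed levels of 10760 and 10710 CPM in Ccl5-high cells and 7718 and 7826 CPM in Ccl5-zero cells. The T cell receptor complex genes Cd3g and Cd3d rose by 0.60 and 0.43 on the log2 scale. Cd8a did not pass, at 115 and 127 CPM in Ccl5-high cells and 125 and 129 CPM in Ccl5-zero cells. One class I gene was lower, and the median was 0.19. B2m, the light chain of class I molecules, rose by 0.47, and the heavy chain genes H2-D1 and H2-K1 rose by 0.55 and 0.45, although reads of class I genes can be shared among paralogues.

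Markers of the remaining cell types were not uniformly low. Ms4a1, Cd79a, Lyz2, Csf1r, S100a8, S100a9, Cd4 and Foxp3 had 0 UMIs in the members, while other genes of the same lists were detected. Of 4 tested B cell markers 1 was higher, with sums of 148 and 123 CPM in Ccl5-high cells and 129 and 138 CPM in Ccl5-zero cells. Of 4 tested myeloid markers 2 were higher, at 7.60 and 11.4 CPM summed in Ccl5-high cells and 2.71 and 3.30 CPM in Ccl5-zero cells. Of 6 tested dendritic cell markers 2 were higher, with sums of 53.9 and 44.9 CPM in Ccl5-high cells and 31.8 and 27.5 CPM in Ccl5-zero cells. Of 5 tested CD4 or regulatory T cell markers 2 were higher. That list summed to 175 and 133 CPM in Ccl5-high cells and 105 and 101 CPM in Ccl5-zero cells. Without control replicate 2, no B cell or myeloid marker and 1 dendritic cell marker passed as higher.

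Interferon-stimulated genes were higher in the summed counts, mainly in control replicate 2. These genes are switched on by type I and type II interferons through transcription factors that bind an interferon-stimulated response element in the promoter. Of 29 tested, 17 rose and none fell, with a median log2 fold change of 0.68. Isg15, a ubiquitin-like protein gene, was at 17.9 and 48.9 CPM in Ccl5-high cells and 7.30 and 10.8 CPM in Ccl5-zero cells (1.98 ± 0.18, adjusted p = 3.48e-08, edgeR). Ifit1, whose protein binds viral RNA, was at 4.14 and 23.4 CPM in Ccl5-high cells, from 6 and 70 UMIs, and at 0.715 and 1.46 CPM in Ccl5-zero cells (3.76 ± 0.30). For both genes control replicate 2 stood well above control replicate 1 among the Ccl5-high sums. Without control replicate 2, Isg15 had a log2 fold change of 1.29 (adjusted p = 0.0258), Ifit1 had 2.51, and 5 of the 29 genes passed as higher. Without control replicate 1, 16 passed. With every cell thinned to the same depth 9 passed, and with depth-matched Ccl5-zero cells 13 passed.

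The promoters of the 2 genes are shown because they carry the letters of this element, as most of the risen genes with a promoter entry do. The sequences are RefSeq's for GRCm38.p6, from 250 bases before to 50 bases after the start, 5′ to 3′ on the gene's strand. Isg15 lies at chr4:156200769-156201068 on the minus strand and Ifit1 at chr19:34640639-34640938 on the plus strand. Capitals mark matches to a motif of GAAA, any 2 bases (NN) and a second GAAA, searched on both strands, which overlap one another in Isg15 (3 matches) and stand apart in Ifit1 (2 matches, on the opposite strand).
Isg15: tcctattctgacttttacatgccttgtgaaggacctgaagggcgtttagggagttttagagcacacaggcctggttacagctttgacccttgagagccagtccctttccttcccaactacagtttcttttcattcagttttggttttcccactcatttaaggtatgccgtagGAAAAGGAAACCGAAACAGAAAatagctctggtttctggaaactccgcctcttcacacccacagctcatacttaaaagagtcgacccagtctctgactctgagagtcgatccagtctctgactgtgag
Ifit1: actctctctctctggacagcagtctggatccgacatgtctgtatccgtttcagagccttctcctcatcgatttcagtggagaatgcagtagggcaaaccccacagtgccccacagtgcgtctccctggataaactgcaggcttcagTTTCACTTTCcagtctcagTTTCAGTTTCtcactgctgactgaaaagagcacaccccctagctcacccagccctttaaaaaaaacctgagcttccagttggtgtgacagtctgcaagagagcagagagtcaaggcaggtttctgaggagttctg
Of the 17 interferon genes higher in the members, 14 had a promoter in the table and 10 of these (71.4%) held the motif. Of the 22 tested interferon genes with a promoter 15 (68.2%) held it, against 3.99% of all 27025 genes in the table and 3.44% of its 32851 promoters. A match describes letters in this window only.

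Per cell, the interferon difference was small. Thinned to 6500 UMIs, the 33 listed genes found in the data summed to a mean of 7.35 and 8.34 UMIs in members. In Ccl5-zero cells they summed to a mean of 6.79 and 7.65 UMIs. The medians were 6.5 and 6.5 UMIs in members, against 5 and 6 UMIs in Ccl5-zero cells. Isg15 UMIs were found in 7.58% (95% exact interval 2.51 to 16.8%) and 15.9% (10.1 to 23.3%) of thinned members, against 5.01% and 5.82% of Ccl5-zero cells. Only the interval of control replicate 2 lay clear of its Ccl5-zero share. One cell held 38.5% of the members' Isg15 UMIs in control replicate 1, and the most in a single cell was 15.1% in control replicate 2.

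Some cell cycle genes were lower in the members. Of 30 tested S phase genes 11 fell and none rose (median -0.20), and of 35 tested G2 and M phase genes 11 fell and none rose (median -0.19). The S phase count was 5 without control replicate 1, without butyrate replicate 1, without butyrate replicate 2 and with DESeq2, and 4 with depth-matched cells. The G2 and M phase count was 6 with DESeq2 and 22 with library totals alone. Mki67, the proliferation marker Ki-67, was at 355 and 411 CPM in Ccl5-high cells and 530 and 500 CPM in Ccl5-zero cells (-0.40, adjusted p = 3.20e-05, edgeR). With a threshold of 20 Ccl5 UMIs, its log2 fold change was -0.59 and did not pass (adjusted p = 0.183). Top2a, which encodes the topoisomerase that resolves chromosomes for division, had 521 and 560 CPM in Ccl5-high cells and 690 and 641 CPM in Ccl5-zero cells. Of 8 cyclin-dependent kinase inhibitor genes 3 rose and none fell. Cdkn1b, the gene of p27, rose by 0.52 and Cdkn2d by 0.44, while Cdkn1a, the gene of p21, did not pass (0.26, adjusted p = 0.0616, edgeR).

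Across cells, the members included a larger share with few division transcripts. Thinned cells with under 10 UMIs of the G2 and M list made up 54.5% (36 of 66; 95% exact interval 41.8 to 66.9%) and 37.1% (49 of 132; 28.9 to 46.0%) of members. They made up 12.8% and 11.8% of Ccl5-zero cells. The members' median was 7.5 and 31 UMIs of this list, against 53 and 50.5 in Ccl5-zero cells, yet their 90th percentiles of 83 and 87.9 were near the 96 and 93 of Ccl5-zero cells. In butyrate the shares of low cells were 21.2% and 22.3% among Ccl5-high cells and 18.2% and 22.6% among Ccl5-zero cells. The S phase list gave medians of 5 and 12.5 UMIs in members and 20 and 20 UMIs in Ccl5-zero cells of the control libraries.

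Because cell cycle position moved with the members, lists were compared separately in low cells (under 10 such UMIs) and in the other cells of the control libraries, as mean UMIs per 6500. NK-type genes stood at 12.5 and 13.9 in low members and 7.81 and 8.54 in low Ccl5-zero cells, and at 5.97 and 5.61 in the other members and 3.37 and 3.31 in the other Ccl5-zero cells. They were thus higher in members within both kinds of cell and in both libraries. Memory-phenotype genes were at 28.5 and 28.5 in low members and 19.9 and 20.6 in low Ccl5-zero cells, and at 17.1 and 21.3 in the other members and 13.6 and 13.9 in the other Ccl5-zero cells. Class I genes stood at 52.7 and 52.0 in low members and 52.1 and 52.1 in low Ccl5-zero cells, and at 45.6 and 51.5 in the other members and 40.6 and 41.5 in the other Ccl5-zero cells. The low classes were close to each other, and the other members were higher than the other Ccl5-zero cells in both libraries. The interferon list did not keep its direction, with 9.14 and 7.82 in low members and 12.8 and 13.4 in low Ccl5-zero cells. In the other cells it stood at 5.20 and 8.65 in members and 5.92 and 6.88 in Ccl5-zero cells.

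Protein folding, ribosome assembly and sterol synthesis genes were lower in the members. Of 21 tested heat shock and unfolded protein response genes 15 fell and none rose, with a median log2 fold change of -0.56. Hspa5, the main chaperone of the endoplasmic reticulum, was at 224 and 256 CPM in Ccl5-high cells and 378 and 422 CPM in Ccl5-zero cells (-0.74 ± 0.05, adjusted p = 1.52e-09, edgeR). Hyou1, a chaperone of the same compartment, had 8.98 and 6.36 CPM in Ccl5-high cells and 24.2 and 26.6 CPM in Ccl5-zero cells (-1.83 ± 0.21, adjusted p = 9.82e-07). The cytosolic Hsp90aa1 fell by 0.74 and the mitochondrial Hspd1 fell by 0.84.

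Of 32 tested nucleolar ribosome assembly genes, gathered by symbol after values were seen, 21 fell and 1 rose (median -0.55). Of 20 cytosolic tRNA synthetase genes, gathered in the same way, 18 fell and none rose (median -0.61). Nolc1, which encodes a nucleolar chaperone of ribosome assembly, was at 41.4 and 75.7 CPM in Ccl5-high cells and 130 and 146 CPM in Ccl5-zero cells (-1.15 ± 0.11, adjusted p = 5.05e-08, edgeR). Gnl3, the nucleolar GTPase nucleostemin, was at 17.9 and 45.5 CPM in Ccl5-high cells and 77.3 and 83.2 CPM in Ccl5-zero cells (-1.17). Heatr1, a factor of small-subunit processing, and Polr1a, the largest subunit of RNA polymerase I, fell by 1.21 and 1.16 on the log2 scale. Thinned to a common depth, 7 nucleolar and 11 synthetase genes passed as lower.

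Of 22 tested cholesterol synthesis genes 11 fell and none rose (median -0.41). Cyp51, the lanosterol demethylase, had 57.3 and 54.9 CPM in Ccl5-high cells and 93.4 and 88.2 CPM in Ccl5-zero cells and fell by 0.69. Without control replicate 2, 3 of the 22 genes passed as lower. Slc16a1, which encodes the lactate transporter MCT1, had 8.98 and 19.8 CPM in Ccl5-high cells and 36.7 and 39.8 CPM in Ccl5-zero cells (-1.26).

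The chaperone, sterol and synthetase lists were lower in members in both kinds of cell and in both libraries. Chaperone genes stood at 31.1 and 32.1 mean UMIs per 6500 in low members and 38.9 and 39.7 in low Ccl5-zero cells, and at 54.4 and 56.7 in the other members and 66.2 and 70.0 in the other Ccl5-zero cells. Sterol genes stood at 3.97 and 3.33 in low members and 5.85 and 4.88 in low Ccl5-zero cells, and at 9.03 and 7.20 in the other members and 10.5 and 10.1 in the other Ccl5-zero cells. Synthetase genes stood at 4.89 and 4.20 in low members and 6.62 and 6.65 in low Ccl5-zero cells, and at 8.13 and 9.77 in the other members and 13.0 and 13.2 in the other Ccl5-zero cells. Nucleolar genes stood at 7.72 and 9.63 in low members and 10.0 and 9.93 in low Ccl5-zero cells, so low cells of control replicate 2 were close. In the other cells they stood at 10.5 and 12.4 in members and 13.7 and 14.7 in Ccl5-zero cells.

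**Figure D4:**
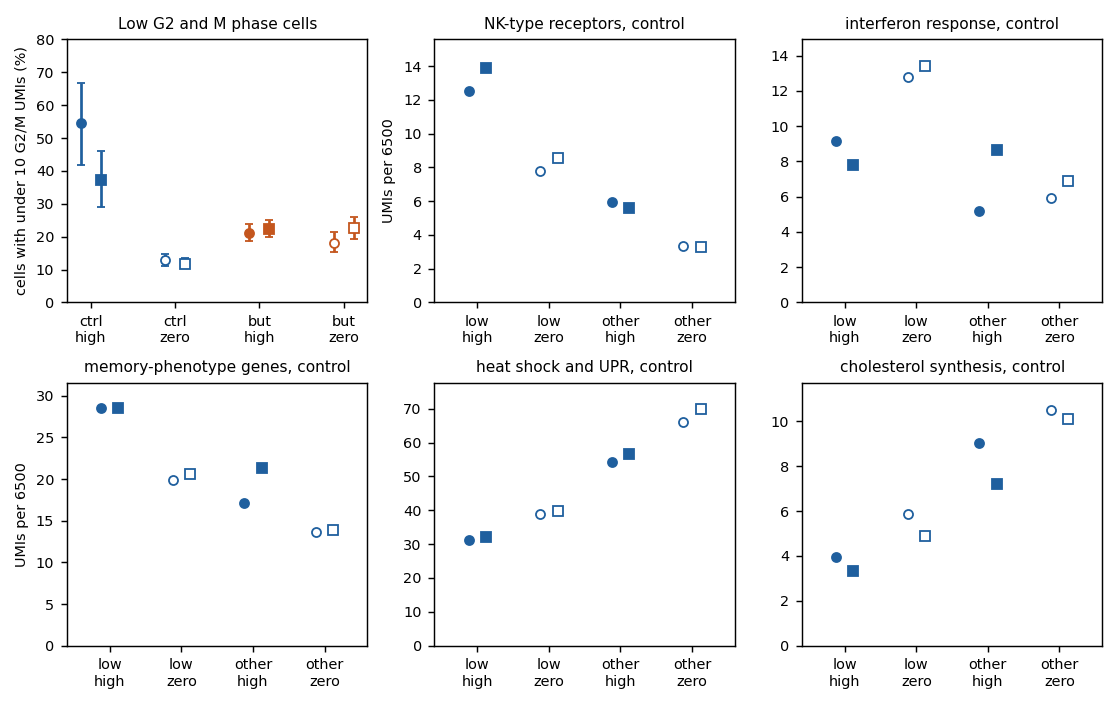
The first panel gives the percent of cells with under 10 UMIs of the G2 and M phase list per 6500 UMIs, with 95% exact binomial intervals, for Ccl5-high (filled) and Ccl5-zero (open) cells of each library (circle for replicate 1, square for replicate 2). The other panels give mean UMIs per 6500 of 5 gene lists in control cells split into these low cells and the other cells. The control Ccl5-high points stand at 54.5% and 37.1%, above the control Ccl5-zero points at 12.8% and 11.8%, and NK-type genes are higher in Ccl5-high than in Ccl5-zero cells of either kind.

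Signalling genes divided between the directions. Of 19 tested IL-2 and STAT5 targets 3 rose and 5 fell (median -0.28). Il2ra, which encodes the high-affinity IL-2 receptor chain CD25, was at 78.7 and 104 CPM in Ccl5-high cells and 126 and 130 CPM in Ccl5-zero cells (-0.45, adjusted p = 0.000506, edgeR). Of 18 immediate early genes 5 rose and none fell, among them the anti-proliferative Btg2 (0.98), the MAP kinase phosphatase gene Dusp2 (0.87) and Nfkbia (0.82), the inhibitor of NF-κB. Of 16 inhibitory receptor genes with Tox 5 rose and none fell, with Ctla4 at 0.74 and Lag3 at 0.61. Their list summed to 548 and 389 CPM in Ccl5-high cells and 309 and 315 CPM in Ccl5-zero cells, and 2 passed without control replicate 1. Effector cytokine and factor genes gave 5 higher and 0 lower of 15, and genes of the BCL2 family and p53 targets gave 6 higher and 1 lower of 22. Without control replicate 2, the higher counts were 2 and 3. Glycolysis genes gave 5 higher and 1 lower of 21, and nuclear oxidative phosphorylation genes gave 6 higher and 7 lower of 35. Without control replicate 2, 3 oxidative phosphorylation genes and 8 immediate early genes were higher.

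Members differed among themselves with their Ccl5 count for some of the genes examined. The levels in this paragraph are CPM of all UMIs except those of Ccl5, without TMM scaling. Ly6c2 stood at 581, 769 and 1620 CPM in members with 10 to 19, 20 to 49 and 50 or more Ccl5 UMIs in control replicate 1, and at 660, 917 and 1220 CPM in control replicate 2. It was thus higher in each higher band of both libraries. Pglyrp1, which encodes a peptidoglycan recognition protein of granules, followed the same order, with 94.8, 129 and 199 CPM in control replicate 1 and 76.1, 102 and 146 CPM in control replicate 2. Mki67 stood at 451, 312 and 0 CPM in control replicate 1 and at 444, 456 and 347 CPM in control replicate 2, so the members with 50 or more Ccl5 UMIs were lowest in both. The 0 in control replicate 1 rests on 11 cells. Nkg7 and Serpinb6b also rose with each band in both libraries. Klrd1 and Il7r did so in control replicate 1 only. In control replicate 2 Klrd1 stood at 415, 396 and 553 CPM and Il7r at 85.6, 88.5 and 65.1 CPM. Klre1 rose with each band in control replicate 2 only, and stood at 38.2, 30.2 and 38.5 CPM in control replicate 1. Isg15 followed no such order, at 12.7, 32.8 and 12.8 CPM in control replicate 1 and 20.4, 82.4 and 63.4 CPM in control replicate 2.

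Cells with fewer Ccl5 UMIs than the members lay between the classes for several genes. Ly6c2 was at 162, 268, 405 and 736 CPM in control cells with 0, 1 to 2, 3 to 9 and 10 or more Ccl5 UMIs in control replicate 1, and at 165, 250, 351 and 840 CPM in control replicate 2. Serpinb6b, a granzyme inhibitor family gene, stood at 19.6, 32.2, 51.5 and 95.3 CPM in control replicate 1 and 21.03, 27.01, 37.1 and 72.5 CPM in control replicate 2. Klre1 had most of its step in the last class, at 1.89, 2.13, 3.65 and 35.5 CPM in control replicate 1 and 3.15, 4.24, 10.7 and 29.7 CPM in control replicate 2. Hyou1 descended across the classes, at 24.4, 20.7, 15.7 and 9.04 CPM in control replicate 1 and 26.8, 21.5, 16.7 and 6.41 CPM in control replicate 2. These levels were scaled over all classes together, so they differ slightly from those given above, and no test was made of the order.

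**Figure D5:**
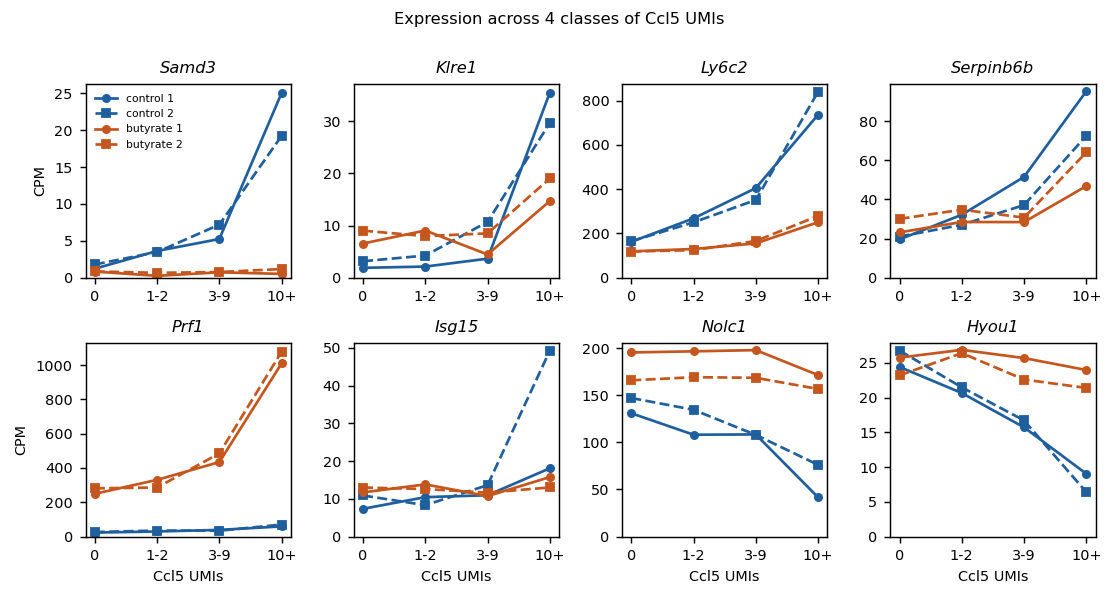
Level (TMM-scaled CPM, linear axes that start at 0) of 8 named genes in cells with 0, 1 to 2, 3 to 9 and 10 or more Ccl5 UMIs, with 1 line per library. In control Ly6c2 climbs through every class to 736 and 840 CPM, and Hyou1 descends to 9.04 and 6.41 CPM.

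In butyrate the same comparison used 1006 and 1034 Ccl5-high cells and 648 and 620 Ccl5-zero cells. Of the same 12501 genes, 675 (5.4%) were higher and 368 (2.94%) lower in Ccl5-high cells, 8.34% in either direction. Of the genes that were higher in control members 294 were also higher in butyrate, 22.9% of the 1282 control genes and 43.6% of the 675 butyrate genes, and 30 were lower there. Of the genes that were lower in control members 109 were also lower in butyrate, 8.2% of the 1330 and 29.6% of the 368, and 25 were higher. The difference between the classes itself differed between cultures in 12.3% of genes. By edgeR's test, the control minus butyrate log2 fold change was positive in 740 genes (5.92%) and negative in 796 (6.37%). The negative ones include genes that fell in control members and not in butyrate. Without butyrate replicate 1, 141 genes were higher in butyrate Ccl5-high cells and 61 lower, and without butyrate replicate 2, 125 and 62. The shared genes then numbered 71 and 66 among the higher and 5 in either case among the lower.

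Several NK-type and granule genes passed in both cultures. Of the 12 NK-type genes 7 rose in butyrate, with a median of 0.66, and for 8 of the 12 the fold change was higher in control. Klrb1c was at 22.8 and 27.1 CPM in Ccl5-high butyrate cells and 6.57 and 7.96 CPM in Ccl5-zero butyrate cells, with log2 fold changes of 2.38 in control and 1.78 in butyrate. Klre1 was at 14.6 and 18.9 CPM in Ccl5-high butyrate cells and 6.50 and 8.95 CPM in Ccl5-zero butyrate cells, a fold change 2.46 ± 0.24 log2 units larger in control (adjusted p = 7.59e-07, edgeR). The fold change of Prf1 was smaller in control. Its levels were 1003 and 1071 CPM in Ccl5-high butyrate cells and 248 and 279 CPM in Ccl5-zero butyrate cells, with log2 fold changes of 1.39 in control and 1.98 in butyrate. Nkg7 rose by 0.57 in control and by 0.49 in butyrate. Of the 17 memory-phenotype genes 7 rose and 2 fell in butyrate, with a median of 0.22. For 10 of the 17 the fold change was higher in control and for 1 it was lower. Scaled over all Ccl5 classes together, Ly6c2 was at 251 and 279 CPM in Ccl5-high butyrate cells. In Ccl5-zero butyrate cells Ly6c2 was at 119 and 118 CPM.

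Other genes separated the classes in control and did not pass in butyrate. Klrd1 was at 186 and 233 CPM in Ccl5-high butyrate cells and 208 and 243 CPM in Ccl5-zero butyrate cells (-0.10, adjusted p = 0.166, edgeR), 1.26 log2 units below its control fold change. Il7r had 50.7 and 54.3 CPM in Ccl5-high butyrate cells and 52.1 and 61.4 CPM in Ccl5-zero butyrate cells (-0.11, adjusted p = 0.322), 1.29 below control. Samd3 was near 1 CPM in all 4 butyrate sums, between 0.508 and 1.16 CPM. Interferon genes gave 1 higher and 4 lower of 29 in butyrate (median -0.04), with a higher fold change in control for 15. Isg15 had 15.6 and 12.9 CPM in Ccl5-high butyrate cells and 11.6 and 12.9 CPM in Ccl5-zero butyrate cells (0.22, adjusted p = 0.309).

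Most genes that fell in control members did not pass as lower in butyrate. Chaperone genes gave 1 higher and 5 lower of 21 (median -0.07), and 13 had a lower fold change in control. Cholesterol genes gave 3 higher and 1 lower of 22, and 10 had a lower fold change in control. Nucleolar genes gave 0 calls of 32 in butyrate by edgeR and 0 by DESeq2, with 6 at an unadjusted p under 0.05, and tRNA synthetase genes gave 3 lower of 20. Hyou1 was at 23.8 and 21.2 CPM in Ccl5-high butyrate cells and 25.57 and 23.04 CPM in Ccl5-zero butyrate cells (-0.11, adjusted p = 0.463, edgeR), and its fold change was 1.73 log2 units lower in control. S phase genes gave 2 lower of 30, and G2 and M phase genes 7 lower of 35.

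A further set separated the classes in butyrate and either did not pass in control or passed there in the opposite direction. Tcf7 was at 3.01 and 3.45 CPM in Ccl5-high butyrate cells and 16.9 and 17.8 CPM in Ccl5-zero butyrate cells (-2.43 ± 0.14, adjusted p = 3.94e-11, edgeR). The control minus butyrate difference was 2.27 (adjusted p = 1.23e-06). Tespa1, which acts in thymocyte receptor signalling, had 5.86 and 5.20 CPM in Ccl5-high butyrate cells and 23.7 and 19.2 CPM in Ccl5-zero butyrate cells (-1.96), against a control fold change of -0.01. Eomes rose by 0.99 in butyrate, and Ccr7, the lymph node homing receptor gene, fell by 0.95 there. Xcl1 took opposite directions, with 1.06 in control and -2.53 (adjusted p = 3.38e-08) in butyrate. In butyrate replicate 1 a single cell held 35 of the 43 Xcl1 UMIs of Ccl5-high cells and another held 79 of the 139 of Ccl5-zero cells. Il2ra, lower in control members, was at 346 and 345 CPM in Ccl5-high butyrate cells and 272 and 286 CPM in Ccl5-zero butyrate cells and rose by 0.31.

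The members' genes can be set beside the effect of butyrate on all kept cells, in which 4846 (35.9%) of 13487 genes were higher and 4812 (35.7%) lower, 71.6% in either direction. This comparison shares its control libraries with the one above, so the values are given side by side only. Ly6c2, higher in members, was at 179 and 192 CPM over all butyrate cells and at 218 and 228 CPM over all control cells. Klrd1 was at 189 and 235 CPM over all butyrate cells and 232 and 227 CPM over all control cells. Prf1 was at 595 and 635 CPM over all butyrate cells and 26.7 and 30.9 CPM over all control cells, so even the control members, at 58.7 and 69.3 CPM, stood far below the butyrate average. Hspa5, lower in members, was at 650 and 615 CPM over all butyrate cells and 367 and 409 CPM over all control cells. Tcf7 was at 8.28 and 9.41 CPM over all butyrate cells and 30.0 and 30.7 CPM over all control cells, and the control members lay within 22.1 to 35.2 CPM. Of the 21 chaperone genes 15 were higher and 4 lower with butyrate, where control members gave 0 higher and 15 lower. Of the 22 cholesterol genes 21 were lower with butyrate, where control members gave 11 lower.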

How the data were processed

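UMI counts per gene and barcode were used as deposited, with every barcode listed and no cell filter, in 4 libraries of sorted CD8+ T cells. Cell Ranger 4, Seurat 4.3 and mm10 are named, per the submitters' processing notes. The sources used here do not give the annotation release or the handling of intronic reads. Coordinates are those of GENCODE M21 (GRCm38), in which 32235 of 32285 gene IDs were found. Columns of other samples numbered 0.

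The members and gene lists were chosen with earlier results of these data known. The tRNA synthetase and nucleolar lists were gathered by symbol after values were seen. Barcodes with at least 6500 UMIs, at least 500 genes and under 10% mitochondrial UMIs were kept. No doublet caller was run and no doublet was removed. An alternative left out the 5% of cells with the most UMIs.

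UMIs were summed by library and Ccl5 class, without Ccl5, and fitted with edgeR 4.0.16 in R 4.3.3 (TMM, filterByExpr, robust quasi-likelihood F test). The terms were the library and the class within control and within butyrate. The design left 2 residual degrees of freedom, with moderation across genes, and the common coefficient of variation between sums was 0.0266. The SE was obtained as the absolute log2 fold change over √F. The butyrate effect on all kept cells was fitted on 4 library sums with group as the only term. Only the fit by class was run on simulated data, in which all sums were drawn with the same spread. Thinned values came from 1 random draw of 6500 UMIs per cell.

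Named genes were the 12 largest increases and 12 largest decreases among genes that passed, averaged at least 10 CPM over the 4 control sums, did not overlap between classes and were not predicted genes or receptor segments. Up to 3 genes per list with the smallest p, a fixed panel of CD8 T cell genes and the 6 strongest control minus butyrate differences were added. Others in the text come from the same lists and were chosen after their values were seen. Replicate numbers 1 and 2 stand for the mouse, per the labels' library names. The deviations of same-mouse libraries from their group means correlated at 0.0589 (Pearson, across genes; Spearman 0.0534). Alternatives were DESeq2 1.42.0, other scalings, filters, thresholds and depths, the replicate block, leaving out each library, and limma 3.58.1 voom with weights, the last chosen after seeing the data. A few genes covered by this rule are left out of the text. UMIs of close paralogues may be assigned to the wrong gene.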

Additional observations from a re-analysis of the deposited data

Results flagged for a closer look

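The class difference itself differed between the cultures for the 40 named genes listed below. The test was edgeR's, of the control minus the butyrate log2 fold change (adjusted p under 0.05). Over all 12501 genes tested, 1536 (12.3%) passed. Some of the 40 were named because they passed this same test and others for their fold change in control. The number listed is therefore no result about the named genes. Values below are that difference, so a positive one means that Ccl5-high cells stood higher relative to Ccl5-zero cells in control than in butyrate.

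Receptor and surface genes that were higher in control members gave 2.46 for Klre1, 1.76 for Klrc1 and 0.60 for Klrb1c. Ms4a4c, a membrane-spanning protein gene, gave 1.84, Ly6c2 gave 1.12 and Cd7, an immunoglobulin superfamily gene of T and NK cells, gave 1.36. Chemokine and cytokine receptor genes gave 1.29 for Il7r, 1.02 for Cxcr3 and 1.36 for Ccr7, while Il2ra gave -0.76.

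Among other genes higher in control members, Samd3 gave 3.78, Camk2n1 1.68, Isg15 1.76, Serpinb6b 0.92 and Pglyrp1 0.82. Isg15 rested largely on control replicate 2. Wdr95 was higher in Ccl5-high cells of both cultures and more so in butyrate, with a difference of -1.15. Xcl1, higher in control and lower in butyrate, gave 3.598. Its control call was lost without control replicate 1.

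Granule genes divided, with 1.59 for Gzmk, 0.47 for Gzmc and -0.59 for Prf1. Transcription factor genes gave 2.27 for Tcf7, -0.86 for Eomes and -1.08 for Klf2, and Tespa1 gave 1.95. The Klf2 call in control rested on control replicate 2.

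Genes that were lower in control members gave negative differences. Hyou1 gave -1.73, Lrrc32, which encodes a carrier of latent TGF-β, -1.79, and Slc16a1 -1.22. Nucleolar and ribosome assembly genes gave -1.19 for Gnl3, -1.13 for Heatr1, -1.07 for Polr1a, -1.07 for Mdn1 and -1.01 for Nolc1. Wdr4, a tRNA methylation factor, gave -0.99 and Xpot, the tRNA export receptor, -0.99. The mitochondrial genes Phb and Lrpprc gave -1.25 and -0.96, and Pprc1, a coactivator of mitochondrial genes, -1.03. Mki67 gave -0.35. Hbegf, on 1 and 9 UMIs in the control members, gave -1.67. Spp1, which encodes osteopontin, gave -1.61, with a higher level in Ccl5-high cells of butyrate. Scaled over all Ccl5 classes, it was at 37.2 and 57.7 CPM there and at 14.7 and 28.9 CPM in Ccl5-zero butyrate cells. In control it was at 11.1 and 17.2 CPM in members and 17.5 and 22.8 CPM in Ccl5-zero cells.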

How the results depend on the processing

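In control, genes higher numbered 789 after thinning and 717 to 1055 with a library left out, against 1282. Genes lower numbered 649 with DESeq2, 2092 with library totals alone, 731 from the 4 control sums, 864 with depth-matched cells, 528 after thinning, 874 with limma-voom weights (an alternative chosen after seeing the data) and 765 to 945 with a library left out, against 1330. In butyrate, genes higher numbered 150 with DESeq2, 363 after thinning and 125 to 1054 with a library left out, against 675. Genes lower numbered 59 with DESeq2, 792 with library totals, 235 with no filter on low counts, 618 from the 4 butyrate sums, 126 after thinning, 612 with limma-voom and 61 to 656 with a library left out, against 368.

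Positive control minus butyrate differences numbered 387 with DESeq2, 407 after thinning and 198 to 600 with a library left out, against 740. Negative ones numbered 232 with DESeq2, 485 with depth-matched cells, 284 after thinning and 104 to 615 with a library left out, against 796. Shared higher genes numbered 92 with DESeq2, 163 after thinning, 448 with limma-voom and 66 to 403 with a library left out, against 294. Shared lower genes numbered 6 with DESeq2, 375 with library totals, 50 with no filter, 26 after thinning, 62 at 20 or more Ccl5 UMIs, 69 at a mitochondrial limit of 5 percent and 5 to 202 with a library left out, against 109. The share of control cells was 1.72% after thinning, 7.79% at 5 or more Ccl5 UMIs, 2.05% at 20 or more, and 3.196 to 5.004% with a library left out. Fewer UMIs were tested after thinning and fewer sums with a library left out. The cause was not tested for the other changes.

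Without the replicate block of library terms, calls in control numbered 1208 higher and 1286 lower. In butyrate they numbered 388 and 171, and shared genes numbered 169 higher and 22 lower. Pairing the all-cell sums by mouse gave 4971 genes higher and 4962 lower with butyrate, against 4846 and 4812, and leaving out a library gave 4338 to 4455 and 4241 to 4459.

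Of 98 named genes called in control, 84 stayed called without control replicate 2, 86 after thinning, and between 93 and 97 under every other alternative run. Log2 fold changes in control that changed sign were near 0 for most genes. After thinning they were -0.051 for Gzmc, 0.079 for Il2rb, 0.105 for Cd8a, 0.103 for Tnfrsf4, -4.78 for Cd74 and 0.457 for Tespa1. With DESeq2 they were 0.0109 for Il2rb, 0.0145 for Ighm and 0.0125 for Tespa1. At 5 or more Ccl5 UMIs they were 0.11 for Tcf7, 0.0113 for Il2rb, 0.0179 for Cd8a and 0.0369 for Ighm, and at 20 or more -0.0762 for Cd44 and -0.0441 for Ikzf2. At a mitochondrial limit of 5 percent they were -0.0265 for Cd44, 0.0581 for Cd8a and 0.0236 for Ighm. Gzmc gave -0.114 without the deepest cells, Ccr7 -0.0863 with depth-matched cells and Tespa1 0.0205 from the 4 control sums. With a library left out, Gzmc gave -0.0624 to 0.199, Tcf7 -0.471 to 0.326, Cxcl10 -4.88 to 4.03, Ighm -0.186 to 0.137 and Tespa1 -0.223 to 0.0919. Only Ikzf2 and Cd74 of these genes had passed.

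With 66 and 132 members, genes of low level rest on few UMIs, and a single cell can carry much of a sum. Free RNA, doublets and the shallower depth of members were not separated from class differences.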
